A study of Mus musculus with 83 samples.

Results

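The translation initiation factors (eIFs) and elongation factors (eEFs) of the mouse ovarian follicle were followed in RNA-seq libraries of single cultured follicles before and after an ovulatory stimulus. Genes were chosen by symbol: rows of the count table beginning with Eif1 to Eif6 or with Eef1 or Eef2, without the eIF2 kinases (Eif2ak) and without Eif symbols that end in -ps. These were 65 of 21572 rows, among them 5 methyltransferases of elongation factors and 2 rows named as pseudogenes, Eef1a1-ps1 and Eef2-ps2, which the rule keeps. The follicles came from wild-type CD-1 mice, an outbred strain. They had been vitrified (cooled to a glass without ice) or used fresh, were grown for 8 days in 0.5% alginate with 10 mIU/ml recombinant FSH, and at 300 to 350 µm in diameter were given 1.5 IU/ml of the LH analogue hCG (human chorionic gonadotropin), 10 ng/ml epidermal growth factor and 10 mIU/ml FSH, freed from the alginate. There were 15, 14, 7 and 12 vitrified follicles at 0, 1, 4 and 8 h after hCG, against 18, 6, 7 and 4 fresh follicles, 83 in all. The labels name no animal, culture or age, so a p-value reflects only how single follicles vary, and some may share an animal.

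Initiation factors bring the initiator tRNA and the small ribosomal subunit to an mRNA and find the start codon, and elongation factors then deliver tRNAs and move the ribosome along. The cap is bound by eIF4E, which joins the scaffold eIF4G and the helicase eIF4A, while 4E-binding proteins hold eIF4E back until mTOR phosphorylates them. The initiator tRNA is carried by eIF2, which eIF2B reloads with GTP, the step that stress kinases block. In the follicle the ovulatory surge turns granulosa cells to new secretory and matrix proteins.

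Promoter sequence was not used to choose these genes and is shown for a few factors described below, to let the motif be seen in its setting. RefSeq promoters (GRCm38.p6, 250 bases before to 50 after each annotated start) were matched for 48 of the 65 genes, 62 promoters in all. The palindrome CACGTG, an E-box bound by Myc and its relatives, lay in 16 of these 62 promoters (25.8%), from 14 genes, against 7.15% of all 32851 promoters in the table. The promoters of the factors were also richer in G and C (median 62.5% against 52.7%) and held more CG dinucleotides (median 24 against 7), and the part of base composition in the E-box share was not tested. The windows below, each written 5′ to 3′ along the gene with the E-box in capitals, are those of the cap-binding complex, of the elongation factors Eif5a and Eef2 and of the kinase of Eef2.
Eif4e, distal E-box, chr3:138527018-138527070, plus strand: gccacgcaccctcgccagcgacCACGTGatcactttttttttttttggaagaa
Eif4e, proximal E-box, chr3:138527179-138527234, plus strand: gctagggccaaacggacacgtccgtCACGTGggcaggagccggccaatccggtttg
Eif4a1, chr11:69672582-69672637, minus strand: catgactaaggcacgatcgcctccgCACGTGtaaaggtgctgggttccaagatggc
Eif4g1, chr16:20672648-20672703, plus strand: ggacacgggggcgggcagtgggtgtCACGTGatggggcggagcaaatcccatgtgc
Eif5a, chr11:69921430-69921485, minus strand: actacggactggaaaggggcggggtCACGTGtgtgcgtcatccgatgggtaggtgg
Eef2, chr10:81176563-81176618, plus strand: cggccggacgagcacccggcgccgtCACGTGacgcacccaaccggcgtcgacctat
Eef2k, chr7:120842775-120842830, plus strand: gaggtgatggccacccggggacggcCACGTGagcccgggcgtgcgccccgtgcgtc
The genes with an E-box did not all move together. From 0 to 1 h 8 of the 14 were called higher and 2 lower in vitrified follicles, and 7 and 2 in fresh follicles. That is near the count over all tested factors, 31 of 64 higher in vitrified and 27 of 64 in fresh follicles, beside 21.8 and 19.4% of all genes. From 1 to 4 h 5 were higher and 5 lower in vitrified follicles, beside 21.1 and 26.4% of all genes, and 6 and 4 in fresh follicles, beside 22.4 and 25.1%. From 4 to 8 h 1 was higher and 6 lower in vitrified follicles, beside 22.4 and 15.7%, and 1 and 7 in fresh follicles, beside 21.3 and 16.3%.

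Other motifs, searched on both strands, gave smaller contrasts or none. The cAMP element TGACGTCA lay in 1.61% of the factors' promoters and 1.79% of all, the C/EBP-ATF element TGATGNAA in 3.23% and 3.97%, the NRF1 core GCATGCGC in 8.06% and 2.71%, and the YY1 motif AAGATGGC in 8.06% and 2.75%. A terminal oligopyrimidine (TOP) start, which puts many mRNAs of the translation machinery under mTOR, was searched on the gene's strand as a C with at least 4 pyrimidines after it, preceded by a purine and within 10 bases of the annotated start. It lay in 12 of the 62 promoters (19.4%), from 11 genes, against 22.9% of all promoters. The search rests on the annotated start, which need not be the first base of the mRNA. These shares therefore cannot show how many of the mRNAs begin with a TOP. The pyrimidine run matched by this search is in capitals in the windows of Eef1a1 and of Eif3f. Whether either run begins the mRNA was not tested.
Eef1a1, chr9:78481710-78481759, minus strand: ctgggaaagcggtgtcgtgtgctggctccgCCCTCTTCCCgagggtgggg
Eif3f, chr7:108934381-108934430, plus strand: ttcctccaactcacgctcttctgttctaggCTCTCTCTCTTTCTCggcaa
A match describes the letters in this window and is not a binding site, and no match says only that the letters are not there.

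Libraries held 682200 to 6504588 counts, and 5 vitrified 0 h libraries in row H of their plate were shallow (682200 to 1346281). All 0 h libraries shared a plate, fresh follicles of the later times shared another with 5, 7 and 3 vitrified follicles of 1, 4 and 8 h, and 9 vitrified follicles at 1 h and 9 at 8 h lay on a plate without fresh ones, read from the library names. Vitrified and fresh follicles were therefore compared within a plate, and the step from 0 to 1 h also changes plate. On the shared plate at 1 h vitrified libraries were deeper than fresh ones (4609293 ± 970634 counts, SD, n = 5, against 2596752 ± 469859, n = 6). Granulosa markers, 11 of 11 in the table, made up 7.03, 6.12, 5.05 and 1.8% of counts at 0, 1, 4 and 8 h in vitrified follicles and 6.56, 5.7, 5.09 and 1.62% in fresh ones. Inha and Inhba held most of this sum. From 1 to 4 h 8 of the 10 tested granulosa markers were lower and 1 higher in vitrified follicles (median log2 fold change -4.01). In fresh follicles 7 were lower and 1 higher (median -3.23). Of all genes 26.4 and 25.1% were lower. Theca and stroma markers, 14 of 14 in the table, made up 0.6, 0.269, 0.0585 and 0.0894% in vitrified follicles and 0.496, 0.367, 0.0792 and 0.0701% in fresh ones, and oocyte markers 0.00288 to 0.00835% over the groups. Lhcgr held most of the theca and stroma sum at 0 h. Gene by gene, the median log2 fold change of vitrified over fresh at 0 h was -0.738 over the 13 tested theca and stroma markers. Of these 0 were called higher and 1 lower. The summed granulosa markers and the summed theca and stroma markers were lower at later times than at 0 h. Their part in the changes with time was not tested. Immune markers (7 of 9 in the table) and endothelial markers (7 of 7) had group means up to 0.00279 and 0.00473%, over both plates, and immune markers 0.00389% in vitrified 8 h follicles of the shared plate, and no marker was at 0 in every library. In whole follicles fewer cells of a type and less RNA per cell cannot be told apart. Of 60 factors placed on the GENCODE transcripts, 6 have a copy at least 90% identical (Eif1, Eif3h, Eif3j2, Eif4a3, Eef1a1 and Eef1g), and their values are uncertain where reads were divided between copies, as are those of Eef2 and its pseudogene row.

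Levels of different genes were compared per length, in TPM (transcripts scaled by length and library). The elongation factors Eef1a1 and Eef2 stood far above all other factors. Eef1a1, which delivers tRNAs to the ribosome, averaged 2793 ± 851 TPM in vitrified 0 h follicles (SD, n = 15) and 3403 ± 765 TPM in fresh 0 h follicles (n = 18). Eef2, which moves the ribosome by a codon, averaged 2808 ± 777 TPM in vitrified and 3378 ± 668 TPM in fresh 0 h follicles. These levels of Eef1a1 and Eef2 differed by less than their spread. In fresh 0 h follicles the next levels were those of Eef1a1-ps1 (601 ± 106 TPM), Eif1 (546 ± 92.4 TPM), Eef1b2 (416 ± 179 TPM) and Eif5a (274 ± 61.7 TPM), neighbours whose spreads overlap except between Eef2 and Eef1a1-ps1. Of the 65 genes 11 exceeded 100 TPM in fresh 0 h follicles, 18 lay between 10 and 100, 20 between 1 and 10, and 16 at 1 or below. Eif4e was 37th, with 4.28 ± 1.41 TPM in vitrified and 5.37 ± 1.13 TPM in fresh 0 h follicles, and Eif2b3 was last with 0.117 ± 0.075 TPM in fresh ones. Eif4e1b, a relative of Eif4e known from oocytes, had 41 counts in all libraries together and was too low to test. The other 64 were tested among 11521 genes.

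All 65 genes together took 2.07 ± 0.325, 2.58 ± 0.242, 2.99 ± 0.356 and 2.69 ± 0.226% of counts at 0, 1, 4 and 8 h in vitrified follicles (SD, n = 15, 14, 7 and 12). In fresh follicles they took 2.33 ± 0.424, 2.59 ± 0.329, 3.19 ± 0.229 and 2.64 ± 0.223% (n = 18, 6, 7 and 4). The share was highest at 4 h in both, and vitrified and fresh ranges overlapped at every time. Eef1a1 and Eef2 together made up 76 ± 2.29% of the factors' counts in vitrified and 75.6 ± 1.23% in fresh follicles at 0 h, and 68.1 ± 2 and 66.5 ± 0.932% at 4 h.

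Vitrified and fresh follicles differed in hardly any of these transcripts. The test was the quasi-likelihood F test of edgeR, adjusted over all tested genes by the Benjamini-Hochberg method, with a threshold of 0.05. By it no factor passed at 0 h, beside 0.998% of all genes, and 5 had an unadjusted p under 0.05. At 1 h, on the shared plate, 1 factor passed (Eif3b), beside 0.582% of all genes. No factor passed at 4 h, beside 0.122% of all genes, or at 8 h on the shared plate, beside 2.16%, and the unadjusted p was under 0.05 for 1 factor at 4 h and for 7 at 8 h. The median log2 fold change of vitrified over fresh was -0.08, -0.02, -0.10 and 0.09 over the factors at 0, 1, 4 and 8 h, against -0.02, 0.05, 0.01 and 0.09 over all genes. Other tools gave other counts for 0 h. DESeq2 called 1 factor. On log2(TPM + 1) limma called 21, all lower in vitrified follicles, where 1522 of the 11521 genes tested were called lower and 40 higher. The median of all genes on that scale was -0.12, and without the shallow libraries of plate row H limma called no factor.

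The smallest adjusted p at 0 h was that of Eif3f, a subunit of the eIF3 scaffold. In CPM, counts scaled to a common library size by TMM and given as the lowest, median and highest library of any group over 5, Eif3f had 253, 333 and 377 CPM in vitrified follicles, against 259.6, 398 and 519.7 CPM in fresh follicles. Vitrified over fresh, this was -0.27 on the log2 scale (95% interval -0.44 to -0.11), with an edgeR adjusted p of 0.108. The ranges overlapped, with the lowest vitrified library below and the highest fresh library above the other group. For Eif4e the intervals of the log2 fold change were -0.32 to 0.14 at 0 h, -0.17 to 0.61 at 1 h, -0.62 to 0.07 at 4 h and -0.73 to 0.26 at 8 h, widest at 8 h, where 3 vitrified follicles met 4 fresh ones. For Eef1a1 they were narrower, -0.20 to 0.10 at 0 h and -0.14 to 0.50 at 8 h.

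**Figure D1:**
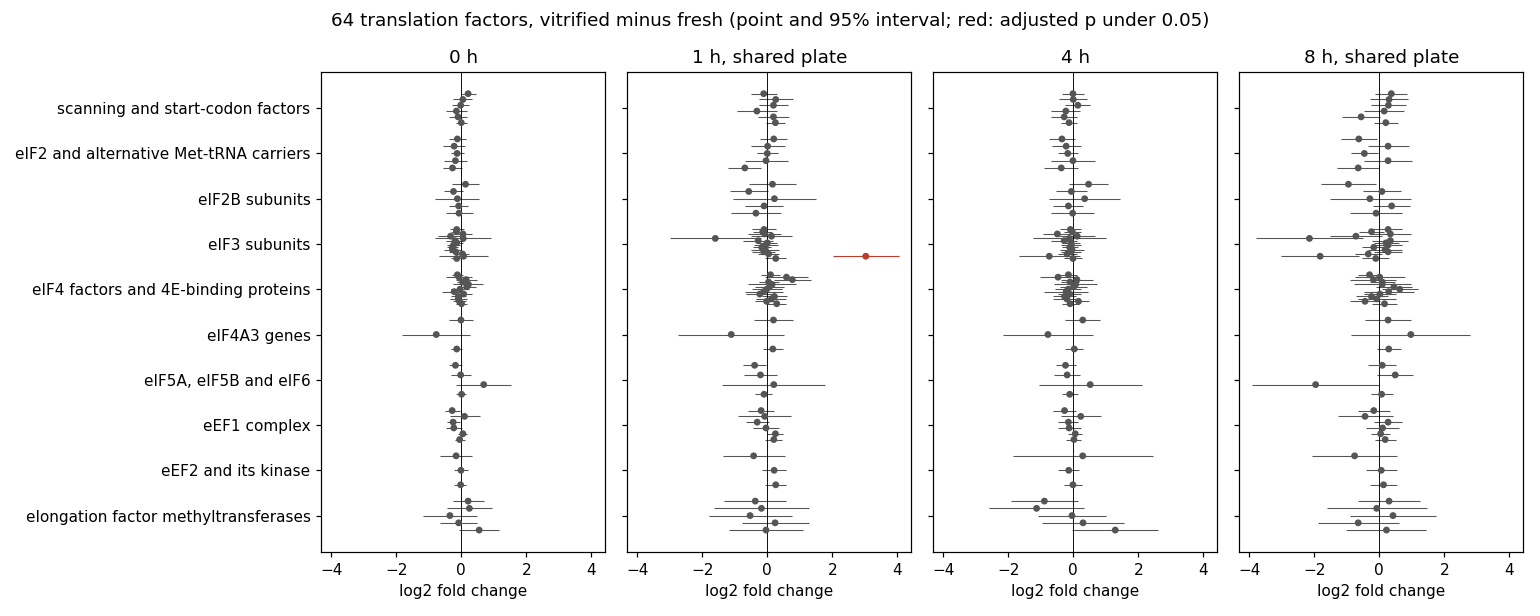
Log2 fold change of vitrified over fresh follicles (horizontal axis) for each of the 64 tested factors, grouped by family, at 0, 1, 4 and 8 h; points are estimates, lines 95% intervals, and red marks an adjusted p under 0.05. Eif3b at 1 h, at 3.03, is the only red point, and the intervals are widest at 8 h.

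Eif3b, an RNA-binding subunit at the core of eIF3, gave that call through a single library. The 5 vitrified 1 h libraries of the shared plate had 5.19, 6.94, 7.28, 153 and 4.55 CPM, against 2.01, 3.39 and 8.22 CPM in fresh 1 h follicles. The log2 fold change was 3.03 (2.01 to 4.04; edgeR adjusted p = 0.000229). Replicate 4 alone was high, and the other 4 lay within the fresh range. Without it the log2 fold change was 0.48 ± 0.41 (SE; edgeR adjusted p = 0.801) and no factor was called at 1 h. The same library was also the highest of its group for Gspt1 (112 CPM), a termination factor, and for Rptor (65.8 CPM), a subunit of mTOR complex 1. At 8 h Eif3b had 5.4, 5.75 and 6.76 CPM in vitrified follicles of the shared plate, against 15.3, 26.3, 12.3 and 30.7 CPM in fresh ones. These groups did not overlap, but the log2 fold change of -1.82 (-3.04 to -0.61) did not pass the test (edgeR adjusted p = 0.111).

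Eif2b5, the catalytic subunit of eIF2B, was also lower at 8 h without passing. It had 11.2, 16.5 and 36.9 CPM in vitrified follicles of the shared plate, against 45.4, 36.6, 38.2 and 47.8 CPM in fresh ones, or -0.95 on the log2 scale (-1.78 to -0.11; edgeR adjusted p = 0.33). The highest vitrified library lay just above the lowest fresh one.

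Between times many factors moved, in vitrified and in fresh follicles alike. From 0 to 1 h 31 of 64 were higher and 7 lower in vitrified follicles, beside 21.8 and 22.5% of all genes, and 27 were higher and 7 lower in fresh follicles, beside 19.4 and 23.5%. From 1 to 4 h 26 were higher and 13 lower in vitrified follicles, beside 21.1 and 26.4% of all genes, and 29 and 10 in fresh follicles, beside 22.4 and 25.1%. From 4 to 8 h 9 were higher and 21 lower in vitrified follicles, beside 22.4 and 15.7% of all genes, and 12 and 23 in fresh follicles, beside 21.3 and 16.3%. Consecutive steps share the libraries of the middle time. The vitrified steps use the shared plate alone at 1 h and 8 h (5 and 3 follicles), and at 8 h 25 of the 64 factors differed between the plates, as given further on, so vitrified changes from 4 to 8 h depend on this choice.

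The direction of the counts from 0 to 1 h and from 4 to 8 h depends on the scaling. With total counts alone in place of TMM, the median log2 fold change of all genes moved to -0.65 in vitrified and -0.59 in fresh follicles from 0 to 1 h, and to 0.73 and 0.75 from 4 to 8 h. The factors then counted 9 higher and 20 lower in vitrified follicles from 0 to 1 h, beside 1245 and 5262 of the 11521 genes tested. In fresh follicles these were 8 and 18, beside 1148 and 5166. From 4 to 8 h 26 were higher and 7 lower in vitrified follicles, beside 4652 and 832 genes. In fresh ones 26 and 8 were called, beside 5043 and 711. From 1 to 4 h the counts were 32 and 9 in vitrified follicles, beside 2794 and 2531 genes. They were 29 and 10 in fresh ones, beside 2504 and 2855. Changes are therefore relative to the median of all genes, and a change in the scaling of the counts shifts both together. With TMM the factors' median minus that of all genes was 0.44, 0.49 and -0.34 over the 3 steps in vitrified and 0.45, 0.51 and -0.40 in fresh follicles. On the log2(TPM + 1) scale it was 0.22, 0.44 and -0.02 in vitrified and 0.23, 0.36 and -0.006 in fresh follicles. The factors' lower median from 4 to 8 h was thus not seen on that scale. Fold changes below are on the TMM scale, and a factor whose sign turns with total counts is named as such.

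**Figure D2:**
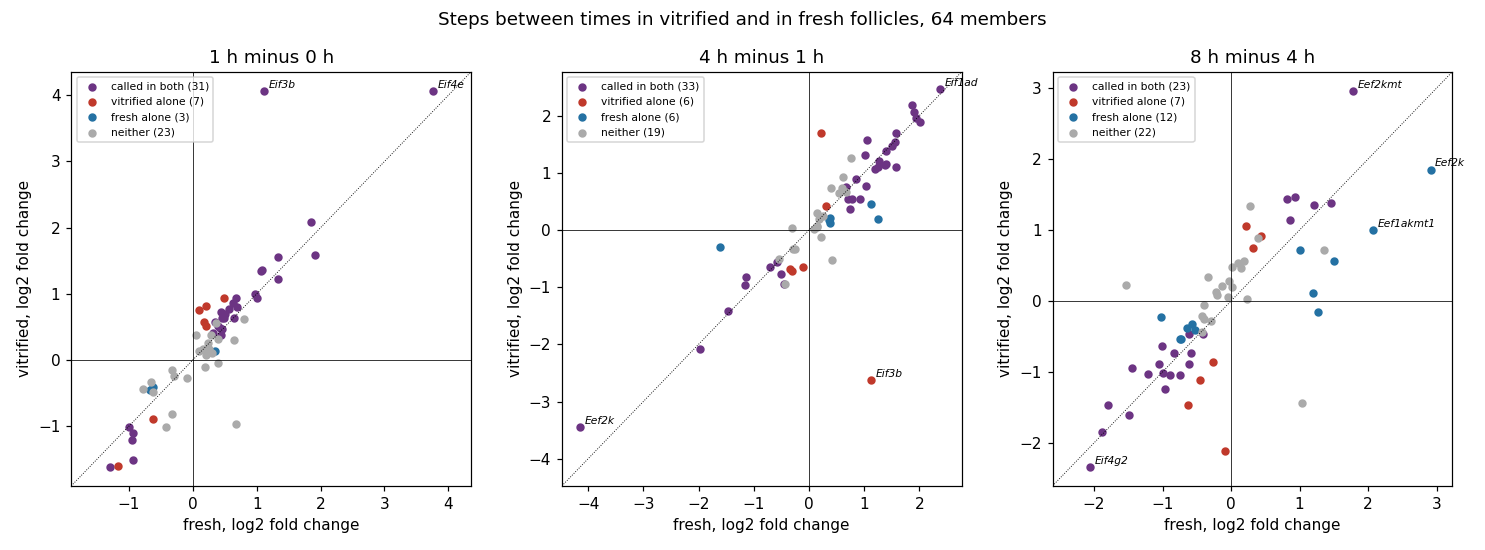
Log2 fold change in vitrified follicles (vertical axis) against fresh follicles (horizontal axis) for the 64 tested factors at each step between times; colours give the calls and the dotted line marks equality. Most points lie near the line, with 31, 33 and 23 factors called in both, and Eif3b lies away from it in the first and the second step.

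The cap-binding protein Eif4e peaked at 1 h. Its level in vitrified follicles was 23.1, 45.9 and 56.7 CPM at 0 h, 677, 961, 689, 626 and 787 CPM at 1 h on the shared plate, 309, 359.8 and 495 CPM at 4 h, and 77.4, 81.4 and 162 CPM at 8 h on the shared plate. Fresh follicles had 32.3, 48.1 and 64 CPM at 0 h, 464, 632 and 859.8 CPM at 1 h, 355, 432 and 609 CPM at 4 h, and 115, 161, 151 and 78.2 CPM at 8 h. The 1 h libraries lay wholly above the 0 h libraries, and the 8 h libraries wholly below the 4 h ones. The log2 fold change from 0 to 1 h was 4.07 ± 0.16 in vitrified (SE; edgeR adjusted p = 9.34e-40) and 3.76 ± 0.14 in fresh follicles (edgeR adjusted p = 1.97e-40). It then fell by 0.95 and 0.45 from 1 to 4 h (edgeR adjusted p = 1.73e-05 in vitrified and 0.0322 in fresh follicles) and by 1.85 and 1.89 from 4 to 8 h (3.79e-09 and 3.82e-11). Per length Eif4e reached 62.9 ± 17.6 TPM in vitrified 1 h follicles of the shared plate (SD, n = 5) and 64 ± 12 TPM in fresh 1 h follicles (n = 6).

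The partners of Eif4e moved later or less. The helicase Eif4a1 had 175, 215 and 265 CPM at 0 h, 612, 562, 695, 383 and 542 CPM at 1 h and 731, 814 and 899 CPM at 4 h in vitrified follicles. Fresh follicles had 150.1, 223 and 303, then 369, 478 and 526, then 666, 919.6 and 1047 CPM. Both steps up passed without overlap between the groups of fresh follicles, with log2 fold changes of 1.36 ± 0.12 and 0.55 ± 0.15 in vitrified and 1.08 ± 0.11 and 0.93 ± 0.14 in fresh follicles (SE; edgeR adjusted p = 1.17e-16, 0.00163, 1.23e-13 and 4.67e-08). The scaffold Eif4g1 rose by 0.64 ± 0.13 and 1.06 ± 0.16 in vitrified and by 0.64 ± 0.12 and 1.19 ± 0.15 in fresh follicles over the same steps. The repressor Eif4ebp1, which competes with eIF4G for eIF4E, rose most from 1 to 4 h, by 1.88 ± 0.24 in vitrified and 2.01 ± 0.22 in fresh follicles (edgeR adjusted p = 1.63e-10 and 1.31e-12). Its 4 h libraries, 294, 309.5 and 503 CPM in vitrified and 302, 407 and 455 CPM in fresh follicles, lay above all 1 h libraries of the shared plate, which reached 122 CPM in vitrified and 135 CPM in fresh follicles.

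Eif4h, which stimulates eIF4A, changed by 0.86 ± 0.12, 0.54 ± 0.15 and -0.74 ± 0.18 in vitrified and by 0.63 ± 0.11, 0.78 ± 0.14 and -0.58 ± 0.16 in fresh follicles, and the last change in fresh follicles turns sign with total counts. Eif4enif1, which carries eIF4E into the nucleus, rose from 0 to 1 h by 0.93 ± 0.31 in vitrified follicles (edgeR adjusted p = 0.0108) and passed in fresh follicles too (0.00388).

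Within the eIF4 family relatives moved in opposite directions from 1 to 4 h. Eif4e2, a cap-binding relative that represses translation, rose by 1.70 ± 0.21 in vitrified and 1.58 ± 0.20 in fresh follicles (SE; edgeR adjusted p = 1.06e-10 and 1.65e-10), while Eif4e3, another cap-binding relative, fell by 2.08 and 1.98 (7.73e-08 and 1.13e-07). Eif4a2, the close relative of Eif4a1, fell by 0.97 and 1.15 (3.84e-06 and 2.77e-08) as Eif4a1 rose. From 4 to 8 h Eif4g2, a scaffold that works without eIF4E, fell by 2.34 in vitrified and 2.06 in fresh follicles (edgeR adjusted p = 2.55e-07 and 2.12e-07). Of the 13 tested members of the family 9 were higher and 0 lower from 0 to 1 h in vitrified follicles and 7 and 1 in fresh ones. Beside these stood 21.8 and 22.5% of all genes in vitrified and 19.4 and 23.5% in fresh follicles. From 4 to 8 h 1 was higher and 5 lower in vitrified follicles, beside 22.4 and 15.7% of all genes. In fresh follicles these were 0 and 7, beside 21.3 and 16.3%. With total counts alone 2 were higher and 2 lower in vitrified follicles from 0 to 1 h, beside 1245 and 5262 of the 11521 genes tested. In fresh follicles these were 3 and 1, beside 1148 and 5166. From 4 to 8 h 4 were higher and 2 lower in both. Beside them stood 4652 and 832 genes in vitrified and 5043 and 711 in fresh follicles. The direction of the family's counts in the last step thus turns with the scaling, which shifts all genes as well.

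**Figure D3:**
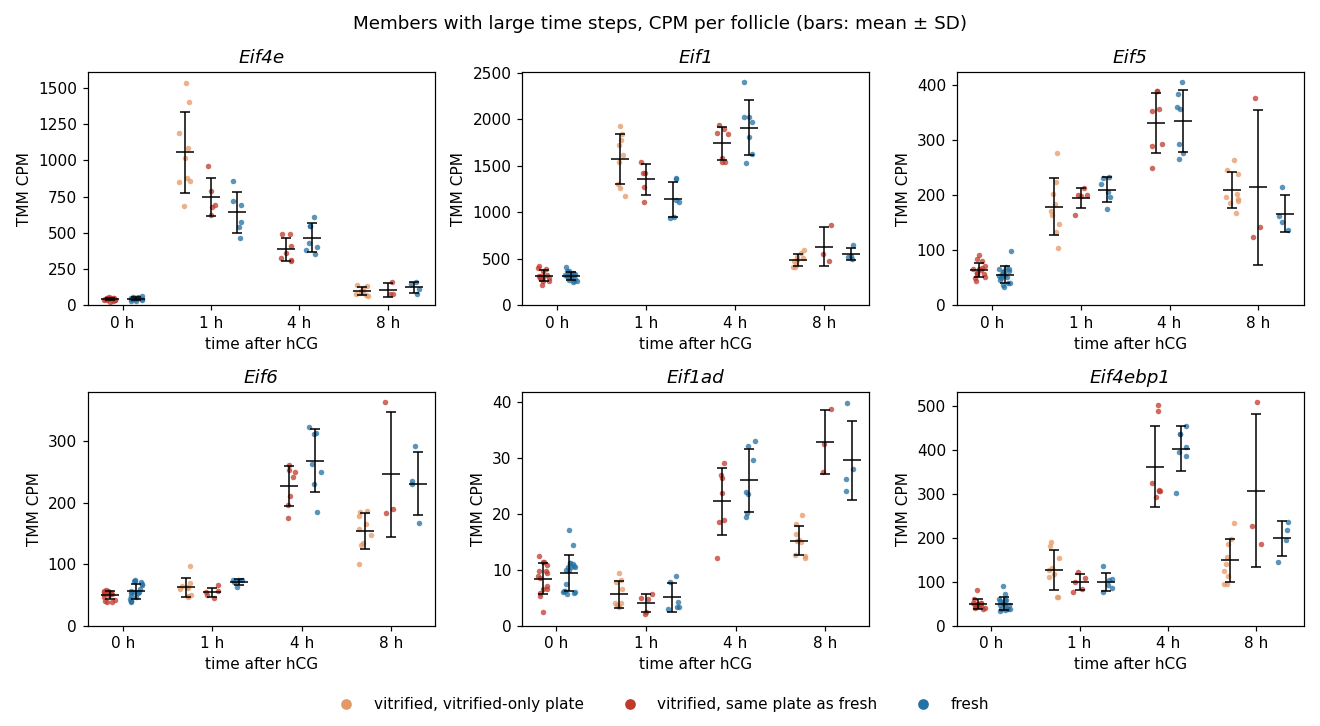
CPM per follicle (vertical axis, linear) of Eif4e, Eif1, Eif5, Eif6, Eif1ad and Eif4ebp1 at 0, 1, 4 and 8 h after hCG; each point is a follicle, bars are mean ± SD, and vitrified follicles of the vitrified-only plate, vitrified follicles on a plate with fresh ones and fresh follicles are drawn apart. Eif4e peaks at 1 h and the others at 4 h or later, in vitrified and fresh follicles.

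The factors that scan for the start codon followed a similar course with a peak at 4 h. Eif1, which keeps the scanning ribosome open, had 221, 306 and 421 CPM at 0 h, 1419.6, 1547, 1423, 1108 and 1277 CPM at 1 h, 1537, 1848 and 1937 CPM at 4 h, and 474, 556 and 870 CPM at 8 h in vitrified follicles. Levels in fresh follicles were 249, 314 and 409, then 938, 1121 and 1366, then 1530.5, 1975 and 2402 CPM, and at 8 h 505, 649, 533 and 519 CPM. All 1 h libraries exceeded all 0 h libraries. The log2 fold changes at the 3 steps were 2.09 ± 0.12, 0.36 ± 0.14 and -1.46 ± 0.18 in vitrified follicles and 1.85 ± 0.11, 0.74 ± 0.14 and -1.79 ± 0.17 in fresh follicles, with edgeR adjusted p between 1.3e-28 and 0.0316. Eif5, which makes eIF2 hydrolyse its GTP at the start codon, changed by 1.59 ± 0.16, 0.76 ± 0.20 and -0.63 ± 0.24 in vitrified follicles and by 1.91 ± 0.15, 0.67 ± 0.19 and -1.01 ± 0.22 in fresh follicles. Eif1a, which sits beside eIF1 on the small subunit, changed by 1.35 ± 0.20, 1.11 ± 0.24 and -1.24 ± 0.29 in vitrified and by 1.07 ± 0.18, 1.58 ± 0.23 and -0.96 ± 0.25 in fresh follicles. All 6 tested members of the group passed upward from 1 to 4 h in vitrified and in fresh follicles, beside 21.1 and 22.4% of all genes. The median of all genes was -0.10 and -0.02.

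Eif1ad, a relative of eIF1A, took another course. It had 2.46, 2.04, 4.85, 5.68 and 4.77 CPM in vitrified 1 h follicles of the shared plate and 12.1, 23.8 and 29.1 CPM at 4 h, against 3.02, 3.79 and 8.91 CPM and then 19.5, 23.9 and 33 CPM in fresh follicles. From 0 to 1 h it fell by 1.10 in vitrified and 0.93 in fresh follicles, and from 1 to 4 h it rose by 2.47 ± 0.29 and 2.37 ± 0.27 (edgeR adjusted p = 1.11e-11 and 6.43e-12). At 8 h it stayed high, with 32.5, 27.4 and 38.8 CPM in vitrified and 39.9, 28, 24 and 26.3 CPM in fresh follicles.

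Of the eIF2 subunits, Eif2s2 (the beta subunit) moved most, with log2 fold changes of 1.56 ± 0.22, 1.16 ± 0.26 and -0.94 ± 0.31 in vitrified follicles and 1.33 ± 0.20, 1.39 ± 0.25 and -1.44 ± 0.28 in fresh follicles (SE; edgeR adjusted p from 4.43e-09 to 0.01). Eif2s1, the alpha subunit that stress kinases phosphorylate, changed by 0.52, 0.55 and -1.04 in vitrified and 0.39, 0.71 and -0.75 in fresh follicles, and its first change turns sign with total counts. Eif2a, an alternative carrier of initiator tRNA, fell from 1 to 4 h by 0.82 and 1.14 (edgeR adjusted p = 0.00904 and 9.55e-05).

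On the TMM scale the eIF2B subunits ran against most other factors from 0 to 1 h and from 4 to 8 h, but not from 1 to 4 h. There 3 of the 5 rose in vitrified and in fresh follicles, beside 21.1 and 22.4% of all genes. From 0 to 1 h 3 of the 5 were lower in vitrified and 2 in fresh follicles with none higher, beside 22.5 and 23.5% of all genes lower. From 4 to 8 h 3 were higher in vitrified and 4 in fresh follicles with none lower, beside 22.4 and 21.3% of all genes higher. These directions were the same with total counts, where most other called factors went the same way as eIF2B. Eif2b4, a regulatory subunit, had 5.54, 10.6 and 20 CPM at 0 h, 4.1, 3.67, 3.24, 4.06 and 3.25 CPM at 1 h, 5.8, 11.4 and 16 CPM at 4 h, and 20.8, 20.4 and 41.9 CPM at 8 h in vitrified follicles. In fresh follicles it had 5.73, 14 and 18.3, then 2.52, 5.15 and 9.69, then 7.71, 10.7 and 15.2 CPM, and at 8 h 28.6, 26.9, 22.1 and 27.2 CPM. The 8 h libraries lay above all 4 h libraries in both. Its log2 fold changes were -1.62 ± 0.26, 1.57 ± 0.28 and 1.35 ± 0.27 in vitrified and -1.29 ± 0.23, 1.06 ± 0.27 and 1.21 ± 0.26 in fresh follicles (edgeR adjusted p = 1.45e-07, 2.51e-06, 4.33e-05, 2.67e-06, 0.000536 and 8.36e-05). Eif2b2, another regulatory subunit, was likewise lower from 0 to 1 h (edgeR adjusted p = 0.000438 in vitrified and 0.000322 in fresh follicles), and then rose by 1.47 and 1.46 in vitrified and by 1.51 and 0.93 in fresh follicles over the next 2 steps. Eif2b3 passed at no step. Eif2b5 changed from 4 to 8 h by -0.16 in vitrified (edgeR adjusted p = 0.777) and 1.26 ± 0.34 in fresh follicles (0.00221), and the difference between these did not pass its own test (edgeR adjusted p = 0.292).

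**Figure D4:**
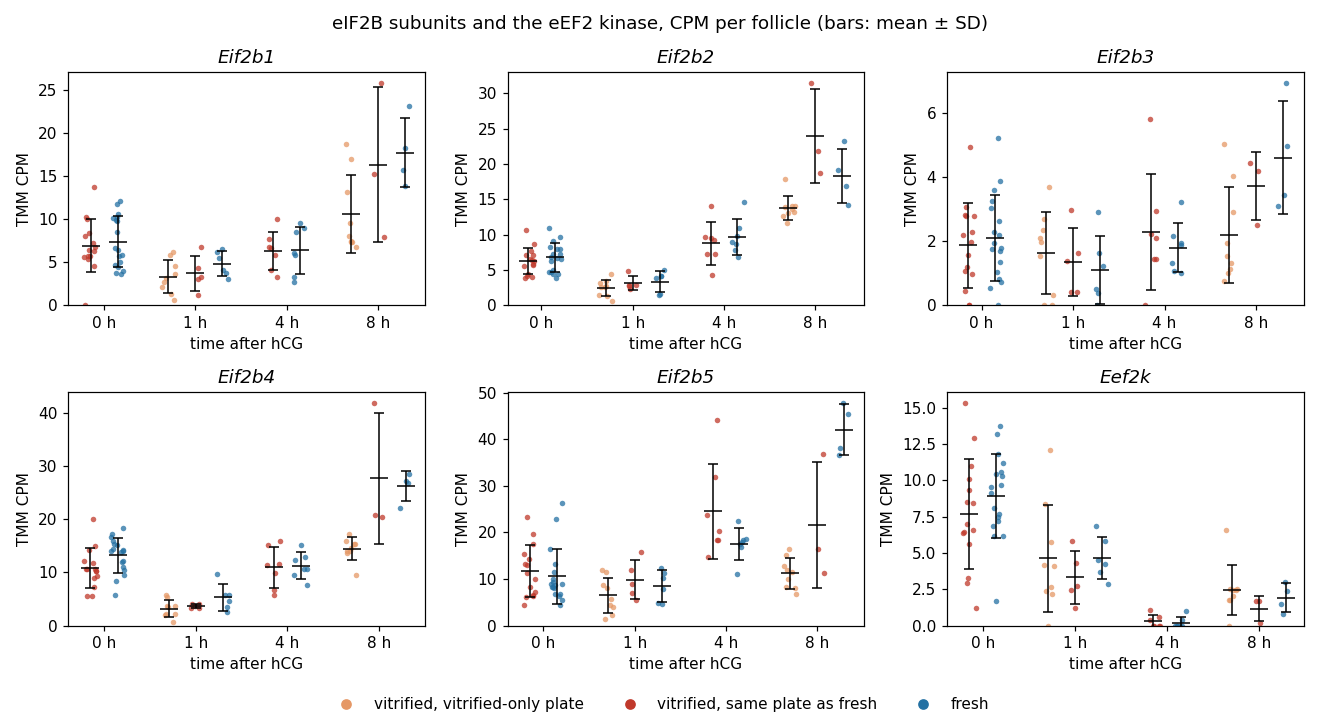
CPM per follicle (vertical axis, linear) of the 5 eIF2B subunits and of Eef2k at 0, 1, 4 and 8 h after hCG, with points, bars and colours for follicles, mean ± SD and plate as named in the legend. Eif2b1, Eif2b2 and Eif2b4 dip at 1 h and are highest at 8 h, and Eef2k is near 0 at 4 h.

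The 14 eIF3 subunits did not move as a block. Eif3c, a core subunit, rose from 1 to 4 h by 1.13 ± 0.17 in vitrified and 1.37 ± 0.16 in fresh follicles, and Eif3g, which contacts the scanning machinery, by 1.54 ± 0.18 and 1.55 ± 0.17 (SE; edgeR adjusted p = 3.07e-11 and 2.87e-12 for Eif3g). Eif3f fell by 0.65 and 0.71 over the same step (5.2e-05 and 4.76e-06). From 4 to 8 h Eif3a, the largest subunit, fell by 1.60 and 1.49 (1.61e-09 and 2.46e-10), with 52.3, 78.2 and 37.5 CPM at 8 h in vitrified follicles, against 63.2, 75, 48 and 56.1 CPM in fresh ones, while Eif3i rose by 1.43 and 0.82 (1.45e-06 and 0.00294). From 1 to 4 h 5 subunits were higher and 4 lower in vitrified follicles, beside 21.1 and 26.4% of all genes. In fresh follicles 4 were higher and 2 lower, beside 22.4 and 25.1%.

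The factors of late initiation and of early elongation rose together from 1 to 4 h. Of these 3 of 4 passed upward in vitrified and in fresh follicles, beside 21.1 and 22.4% of all genes. Eif5a, which helps ribosomes past slow peptide bonds, had 301, 393 and 473 CPM at 0 h, 670, 979.7, 1180, 703 and 909.7 CPM at 1 h, 1719, 2381 and 2775 CPM at 4 h, and 1121, 1192 and 1088 CPM at 8 h in vitrified follicles. In fresh follicles it had 235, 403 and 460.3, then 853, 938 and 1073, then 2244, 2412 and 2746 CPM, and at 8 h 1018, 1168, 1109 and 1012 CPM. The groups of consecutive times did not overlap from 0 to 1 h, from 1 to 4 h or, at 8 h, below the 4 h libraries. Its log2 fold change from 1 to 4 h was 1.38 ± 0.14 in vitrified and 1.39 ± 0.13 in fresh follicles (edgeR adjusted p = 2.04e-14 and 8.55e-16). Eif6, which keeps the large ribosomal subunit from joining early, rose by 2.07 ± 0.18 and 1.91 ± 0.17 (1.14e-16 and 1.19e-16), and Eif5b, which joins the subunits, by 1.96 ± 0.25 and 1.94 ± 0.24 (2.5e-10 and 6.33e-11).

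Among the elongation factors, Eef1a1 had 6877, 9621 and 10896 CPM at 0 h, 16673, 17179, 21189, 15537 and 17048 CPM at 1 h, 14929, 19330 and 24768 CPM at 4 h, and 10219, 11871 and 10733 CPM at 8 h in vitrified follicles. In fresh follicles it had 7623, 9559 and 13541, then 11734, 15554 and 17480.3, then 18182, 20324 and 22405 CPM, and at 8 h 9662, 11769, 8063 and 9146 CPM. The 8 h libraries lay below all 4 h libraries. It rose from 0 to 1 h by 0.93 ± 0.11 in vitrified and 0.68 ± 0.10 in fresh follicles (edgeR adjusted p = 3.09e-12 and 8.3e-09) and fell from 4 to 8 h by 0.89 and 1.05 (2.4e-06 and 2.25e-09). The rise in fresh follicles was not called with total counts. There 0 of the 6 tested genes of the eEF1 complex were called higher from 0 to 1 h in fresh and 1 in vitrified follicles. Beside these stood 1148 and 1245 of the 11521 genes tested. Eef2 changed by 0.73 ± 0.14, -0.77 ± 0.16 and -0.47 ± 0.19 in vitrified and by 0.44 ± 0.13, -0.50 ± 0.15 and -0.61 ± 0.18 in fresh follicles, so that it was already lower at 4 h, while its first change in fresh follicles and its last change in both turn sign with total counts. Eef2k, the kinase that inhibits eEF2, had 2.73, 1.22, 4.31, 2.44 and 5.85 CPM in vitrified 1 h follicles of the shared plate, and 0, 0 and 1.05 CPM at 4 h. Levels in fresh follicles were 2.87, 4.4 and 6.85 CPM at 1 h and 0, 0 and 0.973 CPM at 4 h. The 7 vitrified 4 h follicles held 4 counts of Eef2k in all (4 libraries at 0) and the 7 fresh ones 3 counts (5 at 0), against 62 counts in the 5 vitrified and 60 in the 6 fresh 1 h follicles, and the fall passed in both (edgeR adjusted p = 2.16e-05 and 8.18e-07). Eef1e1, a small protein of the tRNA synthetase complex, rose from 1 to 4 h by 2.18 ± 0.38 in vitrified and 1.86 ± 0.37 in fresh follicles (SE; edgeR adjusted p = 9.9e-07 and 1.37e-05). Eef2kmt, which methylates eEF2, rose from 4 to 8 h by 2.96 ± 0.51 and 1.78 ± 0.45 (1.69e-06 and 0.00103). Eif4a3, a helicase of the exon junction complex with several near-identical copies, rose from 1 to 4 h by 1.11 ± 0.15 and 1.25 ± 0.15 (2.73e-09 and 9.03e-12). Passing at none of the 6 steps were Eif2b3, Eif3m, Eif4ebp2, Eif4a3l1, Eif4a3l2, Eif5a2, Eef1g and Eef1akmt4.

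Calls made in fresh follicles were mostly made in vitrified follicles too. From 0 to 1 h 31 factors were called in both, 81.6% of the vitrified and 91.2% of the fresh calls. From 1 to 4 h 33 were called in both (84.6% of each), and from 4 to 8 h 23 (76.7 and 65.7%), none in opposite directions. Over all genes 75.8, 78.9 and 68.4% of the vitrified calls and 78.2, 78.8 and 69.1% of the fresh calls were shared, so that from 4 to 8 h the factors' share of the fresh calls lay below that of all genes. A test of the difference between the steps called 1 factor from 0 to 1 h, beside 0.156% of all genes, and 1 from 1 to 4 h, beside 0.0434%, both Eif3b (2.96 ± 0.64 and -3.76 ± 0.70; SE, edgeR adjusted p = 0.0165 and 0.00342). Without vitrified 1 h replicate 4 neither was called. From 4 to 8 h edgeR called none, beside 1.05% of all genes, and 5 factors had an unadjusted p under 0.05.

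Vitrified follicles were also compared between plates. At 1 h 1 factor, again Eif3b, was called between the vitrified-only and the shared plate among vitrified follicles (-3.22 ± 0.47; edgeR adjusted p = 7.96e-06), beside 1.38% of all genes, and none without vitrified 1 h replicate 4. At 8 h 4 factors were higher and 21 lower on the vitrified-only plate, beside 10.8 and 13.4% of all genes. Eif5b, which joins the ribosomal subunits, had 7.06, 9 and 14.1 CPM on the vitrified-only plate against 21.5, 24 and 55.7 CPM on the shared plate, or -1.80 ± 0.24 on the log2 scale (SE; edgeR adjusted p = 1.34e-08). Eif4b, the cofactor of eIF4A, had 94.4, 114 and 131 CPM against 49.4, 53.5 and 21.9 CPM, or 1.45 ± 0.29 on the log2 scale (7.16e-05), and Eif4g2 389.5, 429 and 658 CPM against 161, 212 and 86.6 CPM (1.60 ± 0.35; 0.000304). None of these 3 groups overlapped. The third vitrified 8 h library of the shared plate stood apart in several factors. Without it 3 factors were higher and 7 lower, and all 25 kept their sign. Fewer of all genes were called as well. Their share called in either direction then lay below the 10.8% called higher with that library. Plate and the culture run it may stand for cannot be told apart.

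**Figure D5:**
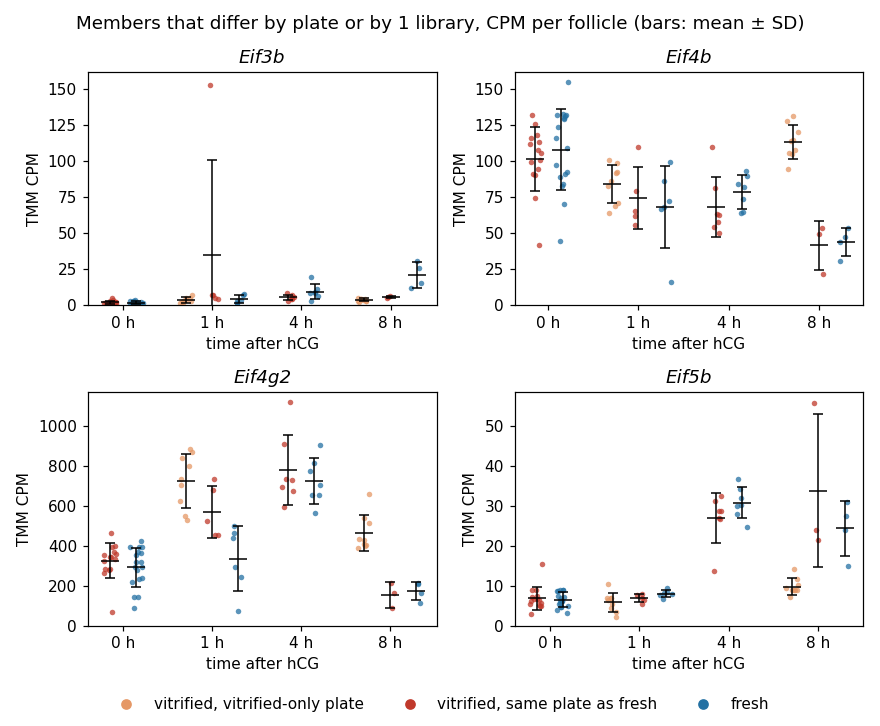
CPM per follicle (vertical axis, linear) of Eif3b, Eif4b, Eif4g2 and Eif5b at 0, 1, 4 and 8 h after hCG, with points, mean ± SD bars and plate colours as named in the legend. A single vitrified 1 h library holds 153 CPM of Eif3b, and at 8 h the vitrified-only plate differs from the shared plate in the other 3 genes.

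Within a plate the change from 1 to 8 h could be compared directly. On the vitrified-only plate 18 factors were higher and 23 lower, beside 32.4 and 28% of all genes, and in fresh follicles of the shared plate 25 were higher and 17 lower, beside 26.6 and 24.2%. In vitrified follicles of the shared plate 22 were higher and 17 lower, beside 3061 and 2826 of the 11521 genes tested. The next values of vitrified follicles are from the vitrified-only plate. With total counts alone the counts were 33 and 9 in vitrified follicles, beside 6379 and 1571 of the 11521 genes tested. In fresh follicles they were 34 and 7, beside 5027 and 1485. The medians of all genes were then 0.90 and 0.67. The eIF2B subunits were higher at 8 h under both, 4 of 5 in vitrified follicles (median 1.65) and 5 of 5 in fresh follicles (median 2.27), Eif2b2 by 2.50 ± 0.24 and 2.44 ± 0.28 (SE; edgeR adjusted p = 1.3e-15 and 5.56e-12). Eif4e was lower by -3.40 ± 0.17 and -2.35 ± 0.23 (1.12e-31 and 1.3e-14). Called in both were 32 factors, 78% of the vitrified and 76.2% of the fresh calls. Another 2 were called in opposite directions, among them Eif4b (0.43 in vitrified and -0.64 in fresh follicles). The plates differed here too, and Eif4b differed between plates among vitrified 8 h follicles. Plate and vitrification therefore cannot be told apart in these 2 calls.

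The other genes of the pathway were taken from 2 lists. Of 32 tested regulators of initiation and elongation, 8 were higher and 8 lower from 0 to 1 h in vitrified follicles, beside 21.8 and 22.5% of all genes. In fresh follicles 10 were higher and 6 lower over this step, beside 19.4 and 23.5%. Mknk2, a kinase of eIF4E, rose by 3.66 ± 0.30 in vitrified and 4.40 ± 0.27 in fresh follicles (SE; edgeR adjusted p = 6e-19 and 1.53e-25). Its level was 0, 2.74 and 6.22 CPM at 0 h and 22.7 to 46.4 CPM in the 5 vitrified 1 h libraries of the shared plate, against 0, 1.64 and 4.09 CPM and then 20.2, 41.3 and 51.7 CPM in fresh follicles, with no overlap between times. Ppp1r15a and Ppp1r15b, which recruit the phosphatase of eIF2, rose by 2.96 and 3.01 in vitrified and 2.91 and 3.01 in fresh follicles, and Atf4, the transcription factor made when eIF2 is phosphorylated, by 2.78 and 2.81. From 1 to 4 h Mknk2 fell by 3.18 and 4.10, and Ppp1r15a by 3.73 and 3.98. Of 15 tested genes of termination and recycling, Etf1, the release factor, rose by 2.07 and 1.96 from 0 to 1 h.

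Between vitrified and fresh follicles 3 genes of these lists passed at 8 h, of 32 and 15 tested, beside 2.16% of all genes. Mtor, the kinase upstream of the 4E-binding proteins, had 47.7, 48.2 and 147 CPM in vitrified follicles of the shared plate, against 29.6, 31.4, 32.3 and 38.2 CPM in fresh ones (log2 fold change 1.30 ± 0.28; SE, edgeR adjusted p = 0.00316). Without vitrified 8 h replicate 3 this was 0.54 (edgeR adjusted p = 0.672). Rptor had 8.1, 10.1 and 14.1 CPM, against 44.6, 48, 50.2 and 54.6 CPM (-2.22 ± 0.53; 0.00784), and -2.19 without that replicate (0.0876). Gspt1 was lower by -1.85 ± 0.53 (0.0402), and by -1.92 without it (0.18). At 1 h Gspt1 alone passed, beside 0.582% of all genes. It was higher (1.57 ± 0.41; 0.0454), and without vitrified 1 h replicate 4 the value was 0.29 (0.882).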

How the data were processed

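RNA of 83 single follicles was made into libraries with Smart-Seq2 and Nextera XT, a chemistry without strand or molecular identifiers, per the labels' protocols. The authors deposited estimated counts per gene, which are not whole numbers, and log2 values of TPM + 1. Partek, Bowtie2, HISAT2 and DESeq2 and the build mm10 are named, without versions or roles, per the submitters' processing notes. No source used here says how reads were divided between near-identical copies.

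Counts were rounded and tested with edgeR 4.0.16 (R 4.3.3), using TMM scaling, filterByExpr with a minimum count of 10 and the robust quasi-likelihood fit. A single model held the 8 groups, with vitrified 1 h and 8 h follicles divided by plate. The Benjamini-Hochberg adjustment ran over the 11521 genes of each comparison, with a threshold of 0.05, and 95% intervals were taken from the SE. The comparisons of 8 h with 1 h within a plate were added to the design later. Alternatives used limma 3.58.1 on the deposited log2 values, DESeq2 1.42.0, other scalings, filters, plate terms and libraries left out. The fit was tested on simulated data with 200 changed genes.

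Members and lists were chosen with earlier results of these data known. Genes named are called factors, up to 12 a comparison by smallest adjusted p (between times, by largest fold change), the core factors of each family, and up to 4 genes of each other list. Replicates were numbered in accession order. The labels do not say whether follicles came from separate animals.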

Additional observations from a re-analysis of the deposited data

Results flagged for a closer look

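Of 112 groups of 4 to 10 libraries examined for a library far from its neighbours, chance gives about 1 flag in 20 groups. Eif3b stood at 153 CPM in a vitrified 1 h library of the shared plate, with the nearest of the other 4 at 7.28 CPM. The vitrified and fresh changes of Eif3b differed from 0 to 1 h (log2 difference 2.96) and from 1 to 4 h (-3.76), by a test of the difference itself, and without that library neither difference was called.

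Single libraries stood high for Eef2k on the vitrified-only plate at 8 h (6.6 CPM, nearest 2.53) and in fresh follicles at 4 h (0.973 CPM, nearest 0.379), both few counts. Eef1akmt1 did so on the vitrified-only plate at 8 h (2.31 CPM, nearest 1.7) and in fresh follicles at 8 h (4.08 CPM, nearest 1.8). Eif6 was high in a vitrified 1 h library of the vitrified-only plate (97.2 CPM, nearest 69.2). Single libraries stood low for Eif5b in vitrified follicles at 4 h (13.7 CPM, nearest 26.6), for Eif5 in vitrified 1 h follicles of the shared plate (165 CPM, nearest 199) and for Eif6 in fresh follicles at 1 h (62.2 CPM, nearest 70.6).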

How the results depend on the processing

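Of the counts and shares recomputed under alternatives, 161 values moved by less than 1.5 times or the spread between replicates, and 36 by more. For the largest called changes of single genes in each comparison, 960 recomputed values kept direction and call, 55 lost the threshold and none reversed. Smaller called changes did turn sign with total counts, from 0 to 1 h 8 of 31 higher calls in vitrified and 11 of 27 in fresh follicles, and from 4 to 8 h 2 of 21 lower calls in vitrified and 6 of 23 in fresh follicles. Between vitrified and fresh follicles at 0 h the number of factors called was 1 with total counts, 1 with DESeq2 and 21 with limma. The 21 were all lower, beside 1522 of the 11521 genes called lower by limma. At 1 h it was 2 without a plate term, 0 with only the compared libraries in the fit, 0 with limma, and 0 to 1 leaving out a replicate (0 without vitrified 1 h replicate 4). At 8 h it was 5 without a plate term, 1 with only the compared libraries and 1 with limma. For the difference between the 0 to 1 h steps it was 0 with total counts, an additive plate term, no plate term, no vitrified-only plate, only the compared libraries or limma, and 0 to 1 leaving out a replicate. For the 1 to 4 h steps it was 0 without a plate term, with only the compared libraries or with limma, and 0 to 1 leaving out a replicate, and for the 4 to 8 h steps 2 without a plate term. Between plates at 1 h it was 2 with RLE scaling, 0 with only the compared libraries, 4 with DESeq2 and 0 to 2 leaving out a replicate, and at 8 h 10 to 28. Without the 50 most abundant genes the factors' share of counts at 0, 1, 4 and 8 h was 0.971, 1.28, 1.89 and 1.37% in vitrified and 1.05, 1.2, 1.92 and 1.47% in fresh follicles. The cause of the other changes under alternatives was not tested. The alternatives without plate row H were chosen after seeing the data. No paired analysis was possible because replicate numbers follow accession order and the labels pair no follicles. Few follicles at 8 h (3 and 4 on the shared plate) and low counts, as for Eef2k and Eif2b3, limit what could be detected.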
